A study of Bos taurus with 39 samples.

Results

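Denuded oocytes were compared with oocytes whose gap junctions had been blocked, both after 22 h of in vitro maturation, across all miRNAs that were sequenced. The libraries were chosen by their labels, namely the 3 titled CBX and the 3 titled Denuded at 22 h, which are 6 of the 39 bovine oocyte libraries of the study. In the CBX group, cumulus-oocyte complexes (COCs) matured with carbenoxolone (CBX), a gap junction blocker, in the medium, so that the oocyte kept its cumulus cells. The Denuded group (DO) consisted of oocytes stripped of their cumulus cells in hyaluronidase before maturation and cultured alone, without CBX. All oocytes came from slaughterhouse ovaries and were selected for a polar body before RNA isolation, and each library is a pool of oocytes. After maturation, the cumulus cells of the CBX group were removed by vortexing, whereas the DO group was treated with pronase to remove the zona pellucida. The drug, the presence of cumulus cells during maturation and this last step all differ between the groups and cannot be told apart here.

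The cumulus cells reach the oocyte through thin projections that cross the zona pellucida, and gap junctions at their tips let small molecules pass in both directions. A mature miRNA binds its target transcripts mainly through the seed, the bases 2 to 8 from its 5′ end, and lowers their translation or stability. The maturing oocyte transcribes little and relies largely on RNA stored during its growth. The predicted miRNAs are sequences that a prediction program placed on the genome, and whether they are true miRNAs with a seed that acts was not tested here.

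The sequences below are those of the predicted miRNAs among the 10 smallest p-values in each direction for which one was listed. Those of a close relative, of a near-identical pair and of a known miRNA, described further on, are also given. The seed is in capitals. They come from the list of sequences published with the study.

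Predicted miR-895: gCGCCCCCggggccgcgg

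Predicted miR-559: gGCGCGCCcccgccgcgc

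Predicted miR-318-0: gCGCGCCCccgccgcgcg

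Predicted miR-457: uCCCCGGCaccuccacca

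Predicted miR-162: uCCAUCUGgacggcuuggcauuggg

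Predicted miR-824: gUCAGGAUggccgaguggucuaagg

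Predicted miR-484: gGGGGUGUagcucagugg

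Predicted miR-485: gGGGAUGUagcucagugg

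miR-21-5p: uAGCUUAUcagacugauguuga

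Predicted miR-895, miR-559 and miR-318-0 consist of G and C only. Over the 18 predicted miRNAs with a listed sequence, the share of G and C had a median of 60.6% and ranged from 31.6% to 100%. Predicted miR-559 and miR-318-0 share a run of 17 bases, which begins at base 2 of the first and at base 1 of the second, so that their seeds are shifted by 1 base. Predicted miR-895 shares 9 bases (GCGCCCCCG) with both, from its own base 1. Predicted miR-484 and miR-485 differ by the single substitution G5A, counted from the 5′ end of miR-484, and reads could be divided between them. None of the 18 seeds was shared. On the ARS-UCD1.2 genome, the region of predicted miR-895 is chr9:93405029-93405136 on the plus strand, that of predicted miR-559 is chr27:6219131-6219238 on the minus strand and that of predicted miR-318-0 is chr17:69639696-69639803 on the plus strand. No sequence of predicted miR-835, one of the miRNAs with the largest differences, was used here.

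The 3 CBX libraries held 91725, 18796 and 87344 counts on miRNAs and the 3 DO libraries 75302, 58547 and 64631. The second CBX library was therefore far smaller than the rest, and it also differed most in content. Of 431 miRNAs tested, 137 differed by at least 2-fold between this library and the mean of the other CBX libraries on the log2 scale, against 26 to 86 for each of the other libraries. A floor of 3 counts corresponded to 159.6 CPM (counts scaled to the library size) in the second CBX library and to between 32.7 and 51.2 CPM in the others, and it covers counting error only. The main results that rest on this library are given with and without the second pair, but not every value is. Nothing in the labels says whether libraries of a group came from separate animals, so that p-values measure the spread between these pools only.

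Of 1995 miRNAs, 1207 had a count in at least 1 of the 6 libraries, 324 of them known and 883 predicted. Both groups detected 1079, and 689 had a count in all 6 libraries. The CBX group alone held 67 miRNAs and the DO group alone 61, with a median of 2 counts and a maximum of 11 over all libraries. No miRNA had a count in all 3 libraries of one group and none in the other. The most abundant of those found in 1 group was predicted miR-391, with 1 and 10 counts in the first and second DO libraries, so that presence or absence separated no miRNA between the groups at this depth. When every library was reduced to 18796 counts, 750.5 to 799 miRNAs were expected in the CBX libraries and 747.3 to 761 in the DO libraries, and the ranges overlapped.

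Differential expression (DE) was tested with edgeR's quasi-likelihood F-test on TMM-normalized counts, with the replicate number as a block, for 431 miRNAs (110 known and 321 predicted) that passed the filter on low counts. To be called, a miRNA needed a Benjamini-Hochberg adjusted p-value under 0.05 together with a log2 fold change of 1 or more in either direction. In the DO group, 1 miRNA rose, predicted miR-895 (0.232% of those tested), and 0 fell. DESeq2 called 4 higher and 0 lower, and unadjusted edgeR p-values under 0.05 were reached by 11 miRNAs (2.55%), of which 6 were higher and 5 lower in the DO group. The median log2 fold change over all miRNAs was 0.03, and 232 of 431 values were above 0. For 169 miRNAs (39.2%), among them 52 known ones, the 95% interval lay within 1 log2 unit of 0, so that a difference of 2-fold or more was outside the interval. For the remaining miRNAs the interval reached at least that far in one direction.

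**Figure D1:**
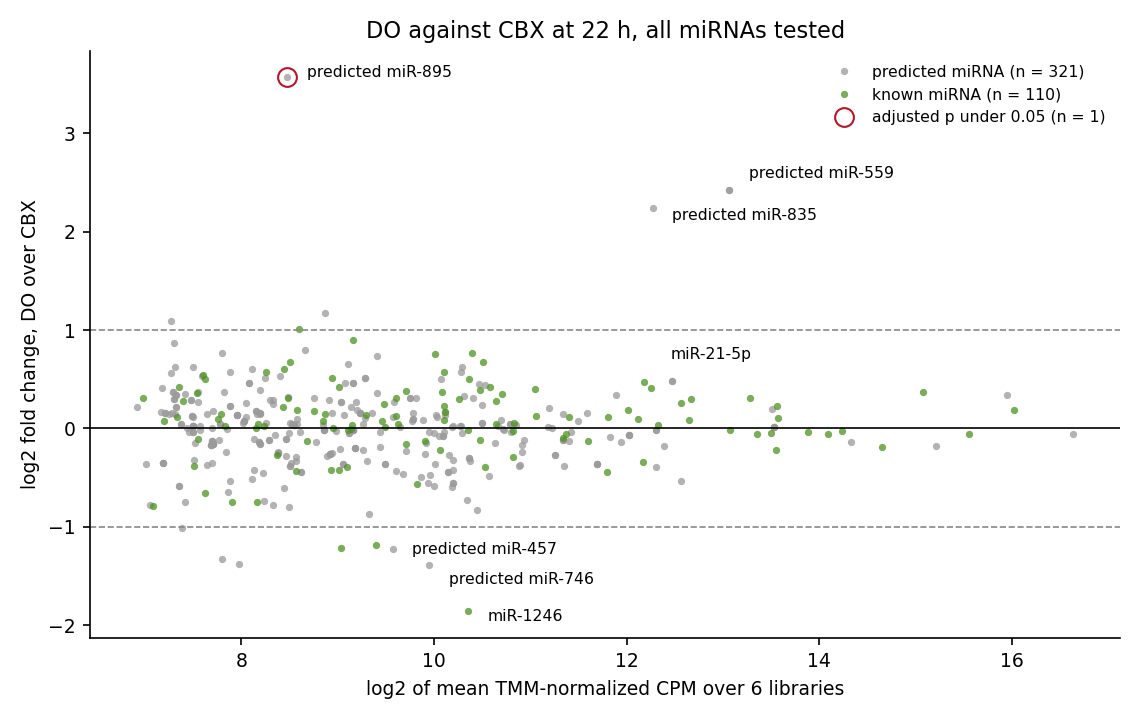
Log2 fold change of DO over CBX at 22 h (y axis) against the log2 of the mean TMM-normalized CPM over the 6 libraries (x axis) for 110 known (green) and 321 predicted (grey) miRNAs, with dashed lines at a 2-fold difference. Predicted miR-895 at 3.57 is the single miRNA past the threshold (ring), and predicted miR-559 and miR-835 at 2.42 and 2.24 stand above the rest of the abundant miRNAs.

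For predicted miR-895, 2, 1 and 6 counts were found in the CBX libraries and 19, 52 and 49 counts in the DO libraries. After TMM normalization these were 22.3, 53.9 and 70.8 CPM in the CBX group and 261, 929 and 802 CPM in the DO group. All 3 DO libraries lay above all 3 CBX libraries, and the first and second CBX libraries were under the floor of 3 counts. The log2 fold change was 3.57 (standard error 0.42, 95% interval 2.58 to 4.56, adjusted p = 0.025 in edgeR's quasi-likelihood test). Because the CBX counts are so low, the ratio was also taken on the counts alone. Summed over libraries, 9 of 197865 counts in the CBX group and 120 of 198480 in the DO group gave a ratio of 13.3, with an exact 95% counting interval of 6.77 to 29.8. Without the second pair, 8 and 68 counts gave a ratio of 10.9 (5.22 to 26.2). Both intervals cover counting error only and leave out the spread between libraries. On the log2 scale, the counting interval over all libraries is wider than the edgeR interval, which should hold that spread as well. The edgeR standard error of 0.42 is therefore probably too small, and DESeq2 gave 0.79 at a log2 fold change of 3.65. The exact two-sided permutation test on the normalized values gave p = 0.1, the smallest value that 3 against 3 libraries allow. The call needed the replicate block, since the adjusted p without it was 0.18 (edgeR) at a log2 fold change of 3.75. It was also lost without the first pair, at a log2 fold change of 3.60, whereas the estimate passed without the second pair (3.45) or without the third (3.64).

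**Figure D2:**
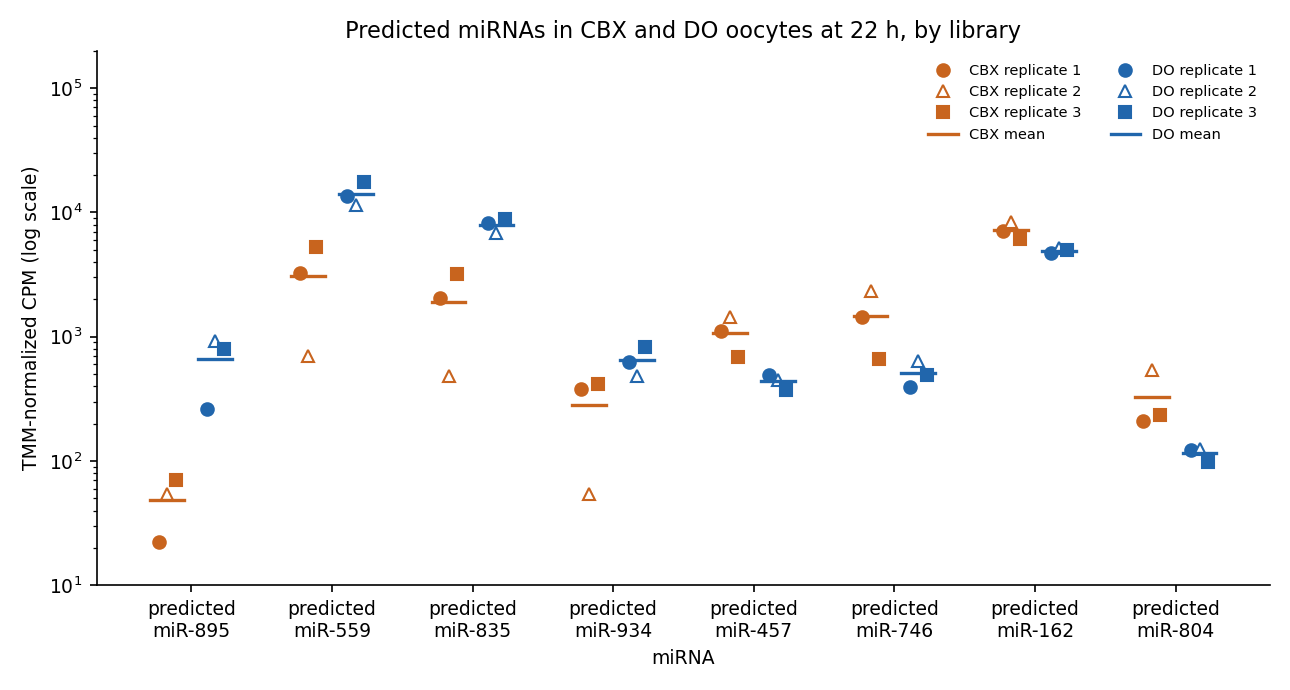
TMM-normalized CPM (log axis) of 8 predicted miRNAs in each CBX (orange) and DO (blue) library at 22 h, with open triangles for replicate 2 and lines for group means. The DO libraries of predicted miR-895 lie between 261 and 929 CPM, above all CBX libraries, and the second CBX library is the lowest point of predicted miR-559, miR-835 and miR-934.

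Predicted miR-559, the G and C sequence that was far more abundant, gave 292, 13 and 448 counts in the CBX libraries and 980, 637 and 1067 counts in the DO libraries. Its normalized level averaged 3081 ± 2299 CPM in CBX oocytes and 14094 ± 3089 CPM in DO oocytes (SD, n = 3 per group), without overlap. The log2 fold change was 2.42 (95% interval 1.45 to 3.39), but the adjusted p of 0.083 in the edgeR test missed the threshold. Predicted miR-560 carried the same counts in every library and cannot be separated from miR-559. Predicted miR-835 followed the same pattern, with 184, 9 and 271 counts in the CBX libraries and 602, 379 and 546 counts in the DO libraries. Its log2 fold change was 2.24 (95% interval 1.30 to 3.18, edgeR adjusted p = 0.084). In each library, miR-835 had between 0.512 and 0.692 times the counts of miR-559, so the pair may not be independent measurements. The groups did not overlap for either, as for 18 of 431 miRNAs (4.18%) that were higher in all DO libraries.

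The call on these 3 sequences depended on the libraries and the settings, and the second CBX library held no more than 13 counts of miR-559 and 9 of miR-835. Without the second pair, the log2 fold change was 1.88 for miR-559 and miR-560 and 1.74 for miR-835, smaller than with it, and all of them passed the threshold in that fit. They also passed without the third pair and did not pass without the first. With DESeq2, with DESeq2-type size factors, without the low-count filter, or with predicted miRNAs fitted apart from known ones, these 3 passed as well, beside miR-895, and in the fit without the filter predicted miR-297 was called lower on 27 counts of the second CBX library against 1 count in the others. Predicted miR-318-0, which shares 17 bases with miR-559, had 83, 12 and 172 counts in the CBX libraries and 52, 124 and 141 counts in the DO libraries. Its groups overlapped, with a log2 fold change of 0.44 (95% interval -0.53 to 1.41). Counts of miR-318-0 per count of miR-559 lay between 0.284 and 0.923 in the CBX libraries and between 0.053 and 0.195 in the DO libraries.

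Apart from these sequences, the smallest p-values with higher values in the DO group belonged to predicted miR-934, miR-155, miR-335, predicted miR-171, predicted miR-713, predicted miR-209 and miR-24-3p, and none passed the threshold. Predicted miR-934 was at 379, 53.9 and 413 CPM in the CBX libraries and 631, 482 and 834 CPM in the DO libraries. The groups did not overlap, but the second CBX value rests on 1 count, and the log2 fold change of 1.17 was 0.87 without the second pair. For miR-155, a miRNA known from immune cells and the single known miRNA with an unadjusted p under 0.05, the values were 1995, 6085 and 3648 CPM in the CBX libraries and 2744, 8077 and 5333 CPM in the DO libraries. Its groups overlapped widely, yet the DO library was the higher one in each of the 3 pairs, by 0.46, 0.41 and 0.55 on the log2 scale. In the fit this gave a log2 fold change of 0.47 (standard error 0.18, edgeR adjusted p = 0.99). For miR-335, which is encoded within the imprinted MEST gene, values were 1170.2, 539 and 1310.3 CPM in the CBX libraries and 1687, 1733 and 1652 CPM in the DO libraries. The 3 DO values lay close together above the CBX values, with a log2 fold change of 0.77 (95% interval -0.00 to 1.54), and 0.43 without the second pair. Predicted miR-171 and miR-713 also did not overlap, with log2 fold changes of 0.74 and 0.80, and both were higher in 3 of 3 pairs. Predicted miR-209 and miR-24-3p, a member of the miR-23, miR-24 and miR-27 clusters, overlapped between the groups, with log2 fold changes of 0.87 and 0.76. Their values were lower when the second pair was left out, at 0.80 and 0.38. Higher values in all 3 DO libraries than in their paired CBX libraries were found for 56 of 431 miRNAs (13%).

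Among the miRNAs with lower values in the DO group, predicted miR-457 and miR-746 had the smallest p-values, and neither passed the threshold. Predicted miR-457 gave 99, 27 and 58 counts in the CBX libraries and 36, 25 and 23 counts in the DO libraries. On the normalized scale the CBX libraries, at 1103, 1454 and 685 CPM, all exceeded the DO libraries, at 494, 447 and 376 CPM. The log2 fold change was -1.23 (95% interval -2.003 to -0.45, edgeR adjusted p = 0.60), and -1.03 without the second pair. Predicted miR-746 was at 1438, 2316 and 661 CPM in the CBX libraries and at 398, 643 and 491 CPM in the DO libraries. The lowest CBX value was barely above the highest DO value, and the log2 fold change was -1.38 (95% interval -2.29 to -0.48, edgeR adjusted p = 0.60). Without the second pair it was -1.18. Lower values in all DO libraries than in any CBX library were seen for 18 of 431 miRNAs (4.18%), and lower values in 3 of 3 pairs for 37 (8.58%).

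Predicted miR-162 was the most abundant of these miRNAs, at 7122, 8347 and 6150.2 CPM in the CBX libraries and 4706, 5164 and 4957 CPM in the DO libraries. The groups did not overlap, although the difference was small, with a log2 fold change of -0.53 (95% interval -0.98 to -0.09, edgeR adjusted p = 0.99). For predicted miR-804 the values were 212, 539 and 236 CPM in the CBX libraries and 123, 125 and 98.2 CPM in the DO libraries, again without overlap. Its log2 fold change was -1.33, and -0.99 without the second pair. Predicted miR-675 and miR-68 showed the same separation at log2 fold changes of -1.01 and -0.60. Predicted miR-824, miR-210 and the known miR-328 overlapped between the groups, with log2 fold changes of -0.83, -1.38 and -0.75.

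The largest negative estimate among the miRNAs tested was that of miR-1246, at -1.86 (95% interval -3.75 to 0.03). Its counts were 163, 62 and 13 in the CBX libraries and 5, 135 and 5 in the DO libraries, so that the level varied widely within each group. Both libraries of the second pair were high for it, with 3339 CPM in the CBX group and 2412 CPM in the DO group. Within pairs, its log2 ratios were -4.71, -0.47 and -0.90, and its estimate without the second pair was -3.52.

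**Figure D3:**
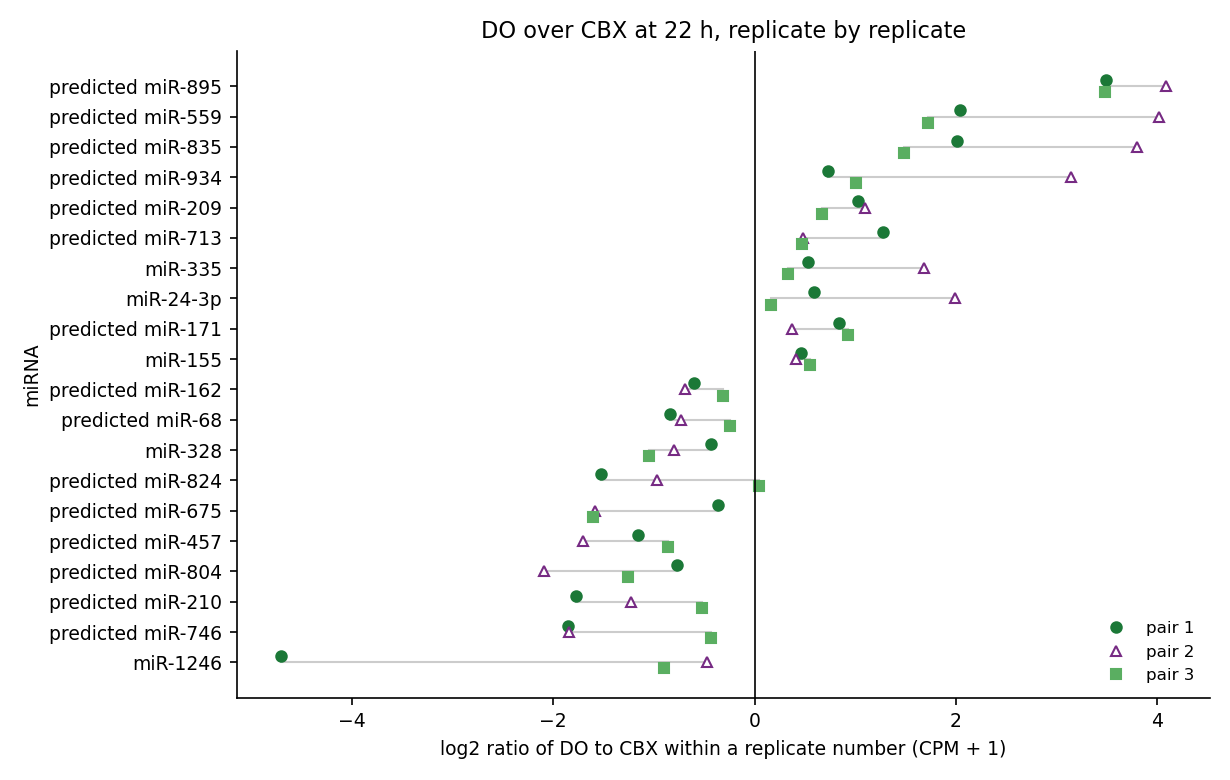
Log2 ratio of DO to CBX within each replicate number, computed on CPM + 1 (x axis), for the 10 miRNAs with the smallest p-values in each direction, ordered by their log2 fold change (y axis). Ratios of predicted miR-895 lie between 3.48 and 4.08, those of miR-155 between 0.41 and 0.55, and the second pair stands apart for predicted miR-559, miR-835 and miR-934 and the first pair for miR-1246.

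The log2 ratios of the second pair had a standard deviation of 1.13, against 0.62 for the first pair and 0.48 for the third. Across the 431 miRNAs, which are not independent replicates, the ratios of the first and the third pair correlated at r = 0.29, and those of the second with the first and the third at r = -0.003 and -0.05. Without the second pair, 467 miRNAs passed the filter, of which 7 were called higher (1.5%) and 11 lower (2.36%) in the DO group. These 18 calls comprise 15 distinct count profiles. The fit then had 1 residual degree of freedom and a single spread shared by all miRNAs, so that these calls rest on the assumption that no miRNA varies more than another.

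The miRNAs called higher in the fit without the second pair were predicted miR-895, miR-559, miR-560, miR-835, miR-432 and miR-672, and the known miR-12030. Those called lower were predicted miR-457, miR-746, miR-210, miR-321, miR-820, miR-597, miR-598 and miR-599, and the known miR-206, miR-1246 and miR-11976. Predicted miR-432 is the clearest case of a result that the second CBX library decides. Its counts were 23, 74 and 5 in the CBX libraries and 100, 23 and 9 in the DO libraries. The second CBX library held the highest level of all 6, and the first and the third pairs were higher in the DO group by 2.42 and 1.30 on the log2 scale. The log2 fold change was 0.13 (standard error 1.15) with all pairs and 2.18 without the second. Predicted miR-672 moved likewise, from 0.15 to 1.85, and predicted miR-879 from 0.28 to 1.09, the last without passing the threshold. For predicted miR-321, with 144, 5 and 198 counts in the CBX libraries and 45, 56 and 75 counts in the DO libraries, the estimate went from -0.43 to -1.14.

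Several other miRNAs that the study names in comparisons of CBX or DO oocytes were followed here, and none of those described next passed the threshold with all 3 pairs. miR-21-5p, a miRNA abundant in cumulus cells, was at 4603, 3285 and 4698 CPM in the CBX libraries and 5323, 6593 and 4892 CPM in the DO libraries. The DO values were all higher, but the log2 fold change was 0.41 (95% interval -0.16 to 0.97), and 0.13 without the second pair. Predicted miR-906 averaged 427 ± 184 CPM in CBX oocytes and 673 ± 138 CPM in DO oocytes (SD, n = 3 per group), with overlap and a log2 fold change of 0.66 (95% interval -0.13 to 1.45). Without the second pair its log2 fold change was 0.49. Predicted miR-364 did not pass the filter, at 35, 13 and 8 counts in the CBX libraries and 3, 8 and 3 counts in the DO libraries. Each of its 3 DO values was below the paired CBX value, while the groups overlapped. Without the third pair it passed the filter and was called lower, at a log2 fold change of -2.73 (edgeR adjusted p = 0.0094), in a fit in which all miRNAs shared a single spread. Of the 9 predicted miRNAs the study names at 22 h, 8 were tested, 6 with a positive log2 fold change, and 1 was called, against 0.232% of all miRNAs, with a median of 0.22. With the second pair left out, 4 were called and the median was 0.79. Of 7 miRNAs it names for CBX against DO at 1 and 6 h, 7 were tested and 0 were called at 22 h, with a median of -0.39. When the second pair was left out, 3 were called and the median was -0.070. Both lists were chosen by the study on its own libraries and are not independent evidence of a direction.

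miR-206, known from skeletal muscle, had 91, 4 and 125 counts in the CBX libraries and 9, 16 and 57 counts in the DO libraries. The first and the third pairs were lower in the DO group and the second was not. The log2 fold change was -1.19 (95% interval -2.64 to 0.27), and -1.53 without the second pair. Predicted miR-484 and miR-485, the near-identical pair, had log2 fold changes of -0.20 and -0.39 with all pairs, and of 0.33 and 0.21 without the second. Both were highest in the second CBX library, at 1400.1 and 5869.8 CPM.

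The most abundant miRNAs showed no difference that passed the threshold. The 10 most abundant known and the 5 most abundant predicted miRNAs had log2 fold changes between -0.22 and 0.37, and the 95% interval held 0 in all 15 and stayed within 1 log2 unit of 0 in 14. The sign of 12 of the 15 differed between the alternative settings, so that no direction is given. miR-16b, of a family that restrains the cell cycle, averaged 62718 ± 12062 CPM in CBX oocytes and 70832 ± 4566 CPM in DO oocytes (SD, n = 3 per group). miR-10b, which lies in a Hox gene cluster, was at 49499.7 ± 7953 and 47105 ± 2706 CPM (SD, n = 3 per group), and miR-148a, which targets the DNA methyltransferase DNMT1, at 30406 ± 7075 and 38983 ± 6120.0 CPM (SD, n = 3 per group). Predicted miR-212, the most abundant sequence, took 103179 ± 4473 CPM in the CBX group and 100413 ± 17773 CPM in the DO group (SD, n = 3). For each of these the groups overlapped.

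The known miRNAs were also described by family, and in no list of families or cell types did a member pass the threshold. All lists are read beside the median log2 fold change of 0.03 over all 431 miRNAs. In the let-7 family, regulators of developmental timing and differentiation, 8 of 9 members were tested, 6 of them with a negative log2 fold change, and the median was -0.12. That median became 0.21 with library sizes from the deduplicated reads, where the median of all miRNAs was 0.29, and 0.04 without the second pair, so that no direction is given for the family. The family's second CBX value was the highest, with a summed level of 54442, 90093 and 56745 CPM in the CBX libraries against 61626, 63201 and 52319.6 CPM in the DO libraries. let-7b illustrates this, at 1984, 7378 and 3482 CPM in the CBX libraries and 2003, 3931 and 2585 CPM in the DO libraries.

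In the miR-30 family all 5 members tested had a positive log2 fold change (4 of 5 with DESeq2-type size factors), with a median of 0.37 and a range of 0.01 to 0.90. miR-30b-5p was the largest of them, but its second CBX value rests on 1 count, and without the second pair the family's median was 0.09. The miR-148, miR-152 and miR-200 families, of which the latter is known from epithelial cells, had 6 positive values of 6 tested and a median of 0.34. The summed level was 37357, 24287 and 38176 CPM in the CBX libraries and 47769.8, 45296 and 35321 CPM in the DO libraries, and without the second pair the median was 0.11. With other scalings, the medians of these 2 lists moved with that of all miRNAs. They stayed 0.34 to 0.37 above it for the miR-30 family and 0.31 to 0.34 above it for the other list. Most other lists also kept positive medians under these scalings, so the sign is not particular to these 2.

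The study chose its RT-qPCR references from candidates tried on cumulus samples, not on oocytes. Of these, 4 miRNAs were looked up here, with let-7a-5p taken for let-7 and without U6. In the oocyte libraries 3 were tested and 0 were called, with log2 fold changes between -0.22 and 0.30.

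The other families had medians close to that of all miRNAs. The median was 0.07 for the 6 tested members of the miR-10, miR-99/100 and miR-125 families, 0.12 for the 9 of the miR-17-92 and miR-106b-25 clusters, which promote proliferation, and 0.11 for the 6 of the miR-15, miR-16 and miR-195 family. It was 0.03 for the 2 tested members of the miR-26 and miR-29 families and 0.08 for the 4 of the miR-23, miR-24 and miR-27 clusters. Without the second pair, these medians lay between -0.13 and 0.02. miR-26a, the most abundant of them after miR-10b, miR-16b, miR-16a and miR-92a, was at 12025, 9962 and 9987 CPM in the CBX libraries and 11030.1, 9863 and 9751 CPM in the DO libraries.

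**Figure D4:**
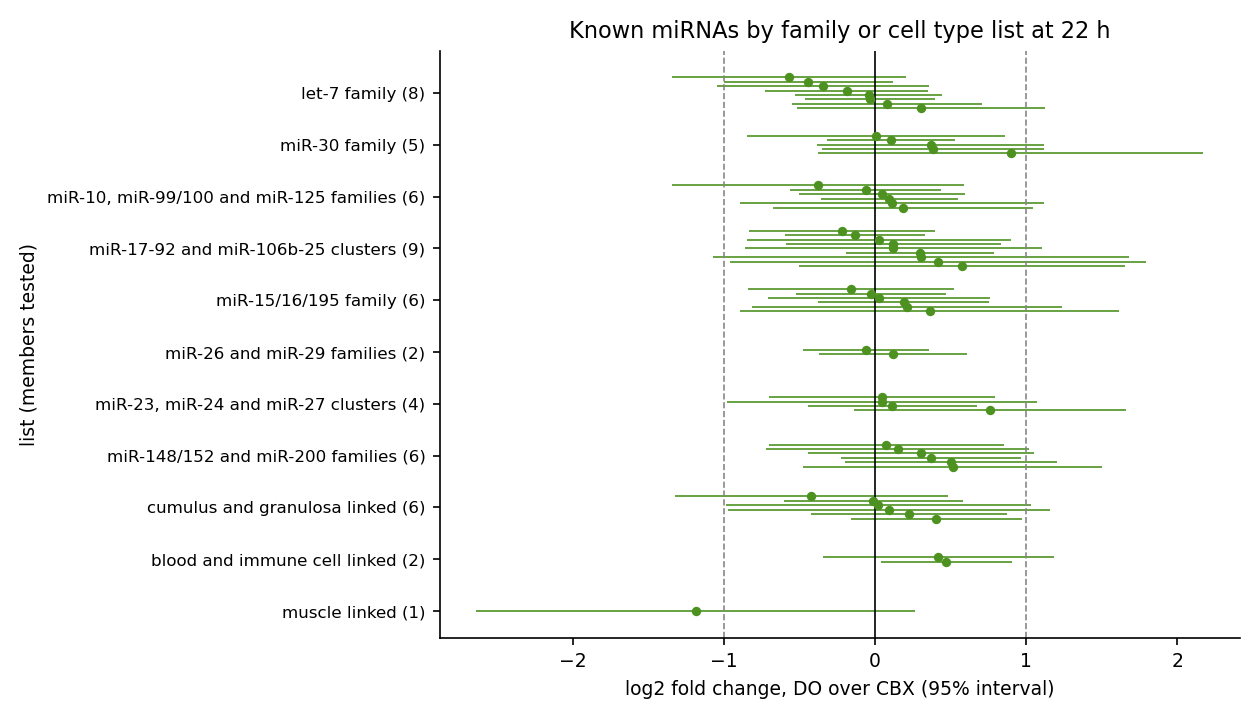
Log2 fold change of DO over CBX at 22 h with its 95% interval (x axis) for each tested known miRNA, grouped by family or cell type list (y axis, with the number tested), and dashed lines at a 2-fold difference. The intervals hold 0 for all but miR-155 (0.04 to 0.91), and the widest is that of miR-206 (-2.64 to 0.27), the member of the muscle list.

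Markers of cells that could remain with an oocyte were checked, because the cumulus was present during maturation in the CBX group and absent in the DO group. Of 20 miRNAs linked to cumulus and granulosa cells, 17 had a count, 6 were tested and 0 were called, with a median log2 fold change of 0.06. Their summed level was 8180.3, 7862 and 8452 CPM in the CBX libraries and 8657, 11454 and 8638 CPM in the DO libraries. The largest part of that sum was miR-21-5p, which many cell types express, at 3285 of 7862 CPM in the second CBX library and more than that share in the others. miR-202, which is typical of the gonads, was at 390.1, 915 and 331 CPM in the CBX libraries and 165, 750.5 and 376 CPM in the DO libraries, and the groups overlapped. miR-145 and miR-214, typical of stromal cells, had at most 1 count in any library. Other members of this list were present and tested. miR-143 had 133, 23 and 103 counts in the CBX libraries and 118, 60 and 75 in the DO libraries, at a log2 fold change of -0.01. miR-199a-3p had 9, 8 and 14 counts in the CBX libraries and 14, 13 and 11 in the DO libraries, at 0.09. miR-132 was at 223, 269 and 129.9 CPM in the CBX libraries and 54.9, 125 and 130.9 CPM in the DO libraries. miR-224 was at 145, 269 and 118 CPM in the CBX libraries and 13.7, 143 and 229 CPM in the DO libraries. Neither passed the filter, and both were lower in the DO group in the first and second pairs but not in the third. The summed level was thus not higher in the group that had matured with cumulus cells, but it does not stand for each member. The median without the second pair was -0.11, and the part of these markers in the other results was not tested. In pooled oocytes, fewer cells that hold a miRNA and less miRNA per cell cannot be told apart.

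Of 8 miRNAs linked to blood and immune cells, miR-155 and miR-150 were tested and 0 were called, whereas the red blood cell marker miR-451 had at most 2 counts in a library and miR-144 and miR-142 had none. miR-150, a lymphocyte miRNA, was at 468, 377 and 460.4 CPM in the CBX libraries and 549, 679 and 573 CPM in the DO libraries, all DO values being higher, with a log2 fold change of 0.42 (95% interval -0.35 to 1.19). Of 6 muscle miRNAs, only miR-206 passed the filter, since miR-1 had at most 7 counts and miR-133a at most 3. Of 6 miRNAs linked to the early embryo, miR-302b had 3 counts in the third CBX library and the others had none.

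The same contrast at 1 h and 6 h of maturation, in other libraries, gave several miRNAs the opposite sign, among them predicted miR-559 and miR-835. At 1 h, 479 miRNAs were tested, of which 2 were called higher (0.418%) and 5 lower (1.04%) in the DO group, and at 6 h 426 were tested, of which 0 were called higher and 10 lower (2.35%). Predicted miR-559 was lower in the DO group at 1 h, with a log2 fold change of -1.70 (edgeR adjusted p = 0.0009), and stood at -0.47 (adjusted p = 0.48) at 6 h. Predicted miR-835 was at -1.78 (edgeR adjusted p = 0.0009) and -0.58 at these times. Predicted miR-895 was at -0.69 (standard error 0.49) at 1 h and -0.65 (standard error 0.41) at 6 h, and neither passed the threshold. miR-155 was at -1.36 (edgeR adjusted p = 0.091) at 1 h and at -1.14 (edgeR adjusted p = 0.0054) at 6 h, where it passed the threshold. Predicted miR-318-0 was called lower at both times, at -1.33 (edgeR adjusted p = 0.045) and -1.11 (edgeR adjusted p = 0.0045). For miR-155 and miR-318-0 the change at 22 h did not pass the test against the earlier times that is described below.

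The levels at the 3 times were compared on values normalized over the 18 CBX and DO libraries, without a test. In DO oocytes, the level of predicted miR-559 was 1845 ± 1245 CPM at 1 h, 3268 ± 1145 CPM at 6 h and 13943 ± 2824 CPM at 22 h (SD, n = 3 each). The 3 DO libraries at 22 h exceeded all other CBX and DO libraries. In the CBX group it was at 5606 ± 3233, 4362 ± 1502 and 3022 ± 2260.1 CPM at the same times (SD, n = 3 each), with overlapping ranges. For predicted miR-895, the DO libraries spanned 77.5 to 241 CPM at 1 h, 71.5 to 239 CPM at 6 h and 265 to 920.0 CPM at 22 h, and the CBX libraries 117 to 306, 82.1 to 361 and 21.7 to 69.7 CPM. The CBX libraries at 22 h were thus below all other CBX and DO libraries, whereas the DO libraries at 22 h exceeded the earlier DO libraries and overlapped with the earlier CBX libraries.

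The change at 22 h was then tested against that at the earlier times as an interaction of group and time over the 18 libraries, with 545 miRNAs. Against 1 h, 4 miRNAs passed (0.734%), all with a higher change at 22 h. The difference was 4.50 log2 units for predicted miR-895 (95% interval 2.68 to 6.32), 3.88 for miR-559 and miR-560 and 3.79 for miR-835, each at an edgeR adjusted p of 0.026. Against 6 h, 0 miRNAs passed with edgeR, and 15 had an unadjusted p under 0.05. For predicted miR-895 the difference was 4.22 (edgeR adjusted p = 0.069). Without the replicate block, and against 1 h also without the first replicate of each group, 0 miRNAs passed, with 21 and 31 unadjusted edgeR p-values under 0.05 against 1 h.

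Among the miRNAs with lower values in the DO group at 22 h, none passed the test of a different change between the times. Predicted miR-746 had log2 fold changes of -0.99 at 1 h, -1.07 at 6 h (edgeR adjusted p = 0.026) and -1.38 at 22 h, the second of which passed the threshold. Predicted miR-457 was at 0.01 at 1 h, -1.19 at 6 h (edgeR adjusted p = 0.0056) and -1.23 at 22 h. Its change at 22 h differed from that at 1 h by -1.20 (95% interval -1.998 to -0.41, edgeR adjusted p = 0.45). The difference of its change between 22 h and 6 h was -0.07 (95% interval -0.88 to 0.74), so that a difference of 1 log2 unit or more lay outside the interval. Predicted miR-68 went from 0.61 at 1 h and 0.11 at 6 h to -0.60 at 22 h, a difference of -1.26 between 22 h and 1 h (95% interval -2.19 to -0.33, edgeR adjusted p = 0.55). Predicted miR-824 was at -1.41 at 6 h, where it fell (edgeR adjusted p = 0.00042), and at -0.83 at 22 h.

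**Figure D5:**
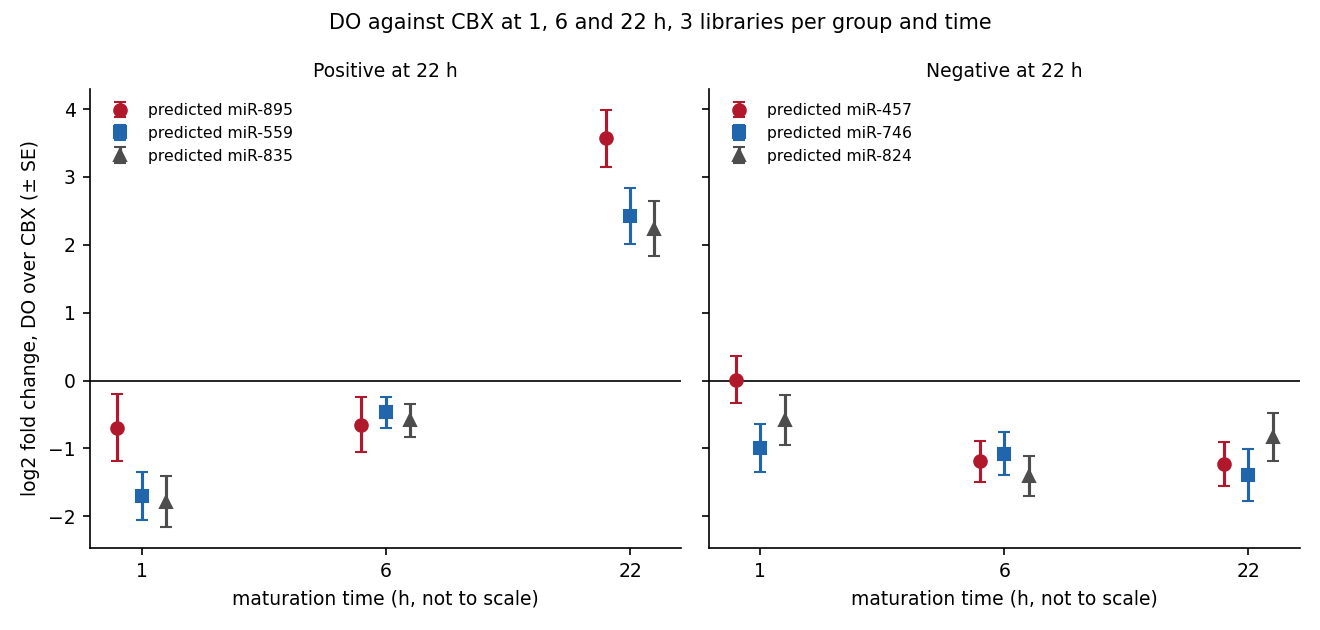
Log2 fold change of DO over CBX ± standard error (y axis) at 1, 6 and 22 h of maturation (x axis) for 3 predicted miRNAs with positive values (left) and 3 with negative values (right) at 22 h, from 3 libraries per group and time. Predicted miR-559 goes from -1.70 at 1 h to 2.42 at 22 h, whereas miR-746 stays between -0.99 and -1.38. The edgeR standard error of predicted miR-895 at 22 h, 0.42, is probably too small (0.79 with DESeq2).

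The control and co-culture oocytes at 22 h place these levels, on values normalized over all 12 libraries at that time and without a further test. Predicted miR-895 spanned 21.5 to 68.0 CPM in the CBX group, 58.4 to 475 CPM in co-culture, 180.0 to 486 CPM in the control group and 253 to 895.1 CPM in the DO group. The CBX group was the low one for this miRNA, although its highest library exceeded the lowest co-culture library. Predicted miR-559 spanned 694 to 5075 CPM in the CBX group, 1745 to 6116 CPM in the control group, 2310.2 to 7673 CPM in co-culture and 10965 to 16515 CPM in the DO group. Here the DO group was the high one, above all 9 other libraries. Predicted miR-457 was at 657 to 1441 CPM in the CBX group, and the 9 libraries of the other groups, from 225 CPM upward, all lay below the lowest CBX library. Predicted miR-162 showed the same order, with 5901 to 8275 CPM in the CBX group and 2194 to 4975 CPM in the other 9 libraries. miR-21-5p was at 7411 to 9700.0 CPM in the control group, above the CBX range of 3256 to 4508 CPM and the DO range of 4628 to 6352 CPM.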

How the data were processed

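Small RNA libraries were prepared from pools of bovine oocytes with a kit that adds unique molecular identifiers (UMIs). Reads were checked with FastQC (0.11.9), deduplicated with UMI-tools (1.1.2 in the submitters' processing notes) and counted on known and predicted miRNAs of ARS-UCD1.2 with miRPro. The authors deposited raw counts per miRNA. A count covers reads assigned to a name, and some predicted miRNAs have identical counts in every library.

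CBX and DO libraries at 22 h were taken by title. miRNAs were filtered (minimum count 10, minimum total 15), TMM-normalized and tested with edgeR 4.0.16 (quasi-likelihood, R 4.3.3) with the replicate number as a block, and p-values were adjusted by Benjamini-Hochberg. The study's methods include the ovary pool as a batch effect, and the replicate number was taken to stand for that pool, which the labels do not state. Intervals are 95%. Scripts were tested on simulated data. Alternatives were DESeq2 1.42.0, other size factors, filters and libraries left out. The named miRNAs are those called, the 10 smallest p-values in each direction, those the study names, the 10 known and 5 predicted most abundant ones, and examples from the lists. Predicted miR-297, miR-560, miR-597, miR-598, miR-599 and miR-820, miR-11976 and miR-12030 were named after their values were seen. The members and lists were chosen with earlier results of these data known. Library depth was 18796 to 91725 counts.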

Additional observations from a re-analysis of the deposited data

Results flagged for a closer look

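The log2 fold change of DO over CBX was higher at 22 h than at 1 h for 4 predicted miRNAs. This was tested as the interaction of group and time over 18 libraries (edgeR's quasi-likelihood test). The shift between the times was 4.50 log2 units for predicted miR-895, 3.88 for predicted miR-559 and 3.88 for predicted miR-560, which has the same counts, and 3.79 for predicted miR-835. The estimates changed sign, from -1.70 at 1 h to 2.42 at 22 h for miR-559 and miR-560 and from -1.78 to 2.24 for miR-835. For miR-895 they went from -0.69 (standard error 0.49) to 3.57, and its sign at 1 h is not settled. All but miR-895 were called lower in the DO group at 1 h. The 3 DO replicates exceeded the 3 CBX replicates at 22 h for each of the 4 miRNAs. Without the first replicate of each group 0 miRNAs passed, and 3 passed without the second or without the third.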

How the results depend on the processing

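The number of miRNAs past the threshold at 22 h was 1, and 0 without the replicate block (12 unadjusted p-values under 0.05, smallest edgeR adjusted p 0.18). It was 4 with DESeq2-type size factors, DESeq2, or known and predicted miRNAs fitted separately, 5 without the low-count filter, 3 with identical count profiles taken once, 3 without the block and the second CBX library, and 0 to 18 with 1 pair left out (0 without the first, 18 without the second and 6 without the third). With a pair left out, 1 residual degree of freedom remained. Without the second or without the third pair, all miRNAs shared a single spread, as they did with library sizes from deduplicated reads. The replicate numbers may mark a shared ovary pool, but same-numbered CBX and DO libraries deviated together with correlations of 0.05, 0.07 and 0.35, so that the pairing by number has weak support in the counts. For the change at 22 h against 1 h, 0 passed without the replicate block, 1 with robust estimation and 0 to 3 with a replicate left out, and against 6 h 0 without the block and 0 to 1 with a replicate left out. Signs reversed for predicted miR-432 (-0.96 without the replicate block, -0.17 with all 12 libraries, -1.56 to 2.18 with a pair left out), miR-672 (-0.86, -0.25, -1.02 to 1.85), miR-879 (-0.27 to 1.09 with a pair left out), miR-321 (-1.14 to 0.16) and miR-318-0 (-0.070 without the second pair, up to 0.86). They also reversed for predicted miR-485 (0.16 without the block and the second CBX library, -0.78 to 0.21 with a pair left out), miR-484 (0.50, -0.52 to 0.33, and 0.12 with library sizes from deduplicated reads) and miR-11976 (0.032 without the block and the second CBX library). The cause was not tested. Of the single values under alternatives, 516 kept their direction and their side of the threshold, 34 newly passed it and 3 no longer did, all for predicted miR-895 (3.75 without the block, 3.60 without the first pair and 3.79 without the block and the second CBX library). The median log2 fold change of all miRNAs was 0.02 to 0.29 with other scalings. In the second CBX library, 1 count equals 53.9 CPM, which limits every miRNA of low count.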
